A study of Mus musculus with 6 samples.

Results

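The tomosyns and the core of the neuronal SNARE machinery were followed in mouse hippocampus with and without Prmt9, a gene for a protein arginine methyltransferase. The set holds 8 genes of the 36008 genes in the authors' expression table, chosen by symbol: the tomosyn genes Stxbp5 and Stxbp5l, the SNARE genes Stx1a, Snap25, Vamp1 and Vamp2, and the complexin genes Cplx1 and Cplx2. Polyadenylated RNA was sequenced from the hippocampus of 3 WT and 3 Prmt9 KO mice, all female, 2 weeks old and of the B6J strain. By the study's methods, loxP sites lie on both sides of exon 5 of Prmt9 and the KO mice lost this exon through CMV-Cre, so the loss is not limited to neurons, and the WT mice were littermates of the same sex. All 8 genes were found once each in the annotation, and all 8 were detected in every mouse.

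A SNARE complex is a bundle of helices that pulls a vesicle onto its target membrane. At synapses syntaxin-1 and SNAP-25 sit on the plasma membrane and a VAMP, also called synaptobrevin, sits on the synaptic vesicle. Complexins bind the assembled bundle and shape its response to calcium, and tomosyns carry a VAMP-like segment with which they occupy syntaxin-1 and SNAP-25 and so hold back vesicle priming. Several of these genes are spliced in alternative forms, among them the cassette exons of the tomosyn linker and the mutually exclusive exons 5a and 5b of Snap25, whose use shifts from 5a towards 5b as the brain matures.

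The cassette exons of the tomosyns are shown first, because the largest splicing difference among the 8 genes lay in one of them. All sequences were read from the GENCODE M21 transcripts of mouse (GRCm38) and are written 5′ to 3′ on the transcribed strand. Stxbp5l lies on the reverse strand of chromosome 16. Its 72-base cassette, chr16:37186651-37186722, is exon 20 of the 28 exons of Stxbp5l-206, and its 171-base cassette, chr16:37142276-37142446, is exon 22 of the same transcript. Stxbp5 lies on the reverse strand of chromosome 10 and has an 84-base cassette at chr10:9796938-9797021. Of the 25 Stxbp5 exons of comparable length, this one was closest in sequence to the 72-base exon of Stxbp5l, with 48 identical bases over 85 aligned positions (56.5%, against 48.4% for the next exon). Capitals in the first pair mark the bases that are identical between the 2 exons in this alignment.
Stxbp5l 72-base exon: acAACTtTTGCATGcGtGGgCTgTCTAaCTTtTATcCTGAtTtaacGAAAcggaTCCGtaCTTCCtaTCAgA
Stxbp5 84-base exon: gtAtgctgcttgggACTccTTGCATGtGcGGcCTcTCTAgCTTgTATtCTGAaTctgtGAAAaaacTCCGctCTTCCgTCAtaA
Stxbp5l 171-base exon: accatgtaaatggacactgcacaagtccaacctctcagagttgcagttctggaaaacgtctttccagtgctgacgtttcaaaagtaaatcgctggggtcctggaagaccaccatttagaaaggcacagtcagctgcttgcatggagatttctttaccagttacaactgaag
Stxbp5 51-base exon: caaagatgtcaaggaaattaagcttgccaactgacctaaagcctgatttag
The 51-base exon of Stxbp5, chr10:9778021-9778071, is exon 20 of 26 in Stxbp5-209 and is shown because its inclusion could be followed in every mouse. All 4 cassettes are coding over their whole length, and each length divides by 3, so skipping any of them keeps the reading frame. By the study's primer sequences, the RT-PCR pair for Stxbp5l gives 290 bases with the 72-base exon and 218 bases without it.

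Snap25 lies on the forward strand of chromosome 2, and its exons 5a (chr2:136769743-136769860) and 5b (chr2:136770057-136770174) have 118 bases each. They differ at 31 of the 118 positions, which are in capitals.
Snap25 exon 5a: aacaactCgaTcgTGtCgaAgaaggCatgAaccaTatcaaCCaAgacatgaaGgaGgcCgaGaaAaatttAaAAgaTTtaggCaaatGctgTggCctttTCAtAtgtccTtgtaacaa
Snap25 exon 5b: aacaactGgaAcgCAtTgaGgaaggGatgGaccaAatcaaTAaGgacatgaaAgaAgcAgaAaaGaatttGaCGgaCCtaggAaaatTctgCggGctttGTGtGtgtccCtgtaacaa
Vamp1 has 2 main transcripts that differ by its last coding intron of 412 bases (chr6:125219638-125220049, forward strand), which Vamp1-201 splices out and Vamp1-203 keeps. The end of the coding sequence, without the stop codon, shows the consequence, with the bases after the shared part in capitals.
Vamp1-201: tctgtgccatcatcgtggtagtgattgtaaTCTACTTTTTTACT
Vamp1-203: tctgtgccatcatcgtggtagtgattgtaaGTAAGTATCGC
The coding sequence of Vamp1-201 ends with 14 bases from the next exon and is 354 bases long, whereas that of Vamp1-203 runs 11 bases into the intron and is 351 bases long.

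The libraries held 194098391 to 286771677 estimated counts. Prmt9 was at 11.8, 15.2 and 15.0 TPM (abundance relative to transcript length and to the whole library) in WT mice 1 to 3 and at 3.93, 4.61 and 4.67 TPM in KO mice 1 to 3. The groups were separate, and the KO mean was 31.5% of the WT mean (log2 fold change −1.71, SE 0.10, edgeR's quasi-likelihood test, adjusted p = 0.0327). In both genotypes the mouse numbered 1 stood apart from the other mice, and the first principal component of all genes, with 67.4% of the variance, placed these 2 mice on one side and the other 4 on the other side. WT mouse 1 lay furthest out, at 110, with KO mouse 1 at 30.6 and the other 4 at −37.8 to −31.5. The share of transcripts with no count was 37.4% in WT mouse 1 and 22.8% to 24.8% in the other 5 mice. The 4 markers of the oligodendrocyte lineage summed to 1734 and 914 TPM in the mice numbered 1 and to 6689 to 9555 TPM in the others, and the 6 markers of hippocampal excitatory neurons to 1738 and 1839 TPM against 2834 to 3008 TPM. The 5 inhibitory neuron markers, 4 astrocyte markers, 4 microglia markers and 3 thalamus markers summed to 829 to 973, 600 to 767, 110 to 165 and 15.0 to 21.1 TPM. Sst made up most of the inhibitory sum and was not lower in the mice numbered 1 (654 and 760 TPM against 638 to 658). Gad1, Gad2, Slc32a1 and Pvalb were each lower in both of these mice, for Gad1 at 90.1 and 107 TPM against 159 to 171 TPM. The astrocyte and microglia sums were also lower in both mice numbered 1 than in the others, as were Gfap, Slc1a3, Cx3cr1, Csf1r and Tmem119 each. Aqp4 (58.6 and 66.0 TPM against 54.2 to 72.4), Aldh1l1 (37.9 and 44.5 against 41.4 to 44.6) and P2ry12 (44.9 and 32.8 against 33.3 to 42.4) were not lower in both. Markers of endothelium and blood summed to 585 to 2762 TPM and of the choroid plexus to 604 to 7239 TPM, the latter sum highest in WT mouse 1. Hbb-bs, a blood marker, made up most of the former, at 472 to 2687 TPM. Of the endothelial markers, Cldn5 was higher in both mice numbered 1 (107 and 89.2 TPM against 37.1 to 45.2). Flt1 was lower in both (7.19 and 7.89 TPM against 14.8 to 20.5), and Pecam1 was similar (14.9 and 15.8 TPM against 13.5 to 15.5). No marker was at 0 in any mouse. The part of these differences in the results that follow was not tested, and the differences in the Stxbp5l exons, the Vamp1 intron and the 915-base Stxbp5 intron are also given without the mice numbered 1. In bulk tissue, fewer cells of a type and less RNA per cell cannot be told apart.

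No difference in level between the genotypes passed the test for any of the 8 genes. With a limit of adjusted p below 0.01 and a change of more than 1.5-fold, 0 of the 8 genes were called, as were 0 of all 20335 genes tested (0%). The log2 fold changes of the 8 genes ran from −0.15 for Vamp1 to 0.06 for Stx1a, with a median of −0.01, the same as the median of −0.01 over all genes tested, and every adjusted p was 0.9999 (edgeR). At an unadjusted p under 0.05 there were 251 of all genes (1.23%) and 0 of the 8. The TPM ranges of WT and KO overlapped in 8 of 8 genes, while they did not overlap in 6.67% of all genes. By DESeq2, 2 genes were called, and none of them was among the 8.

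**Figure D1:**
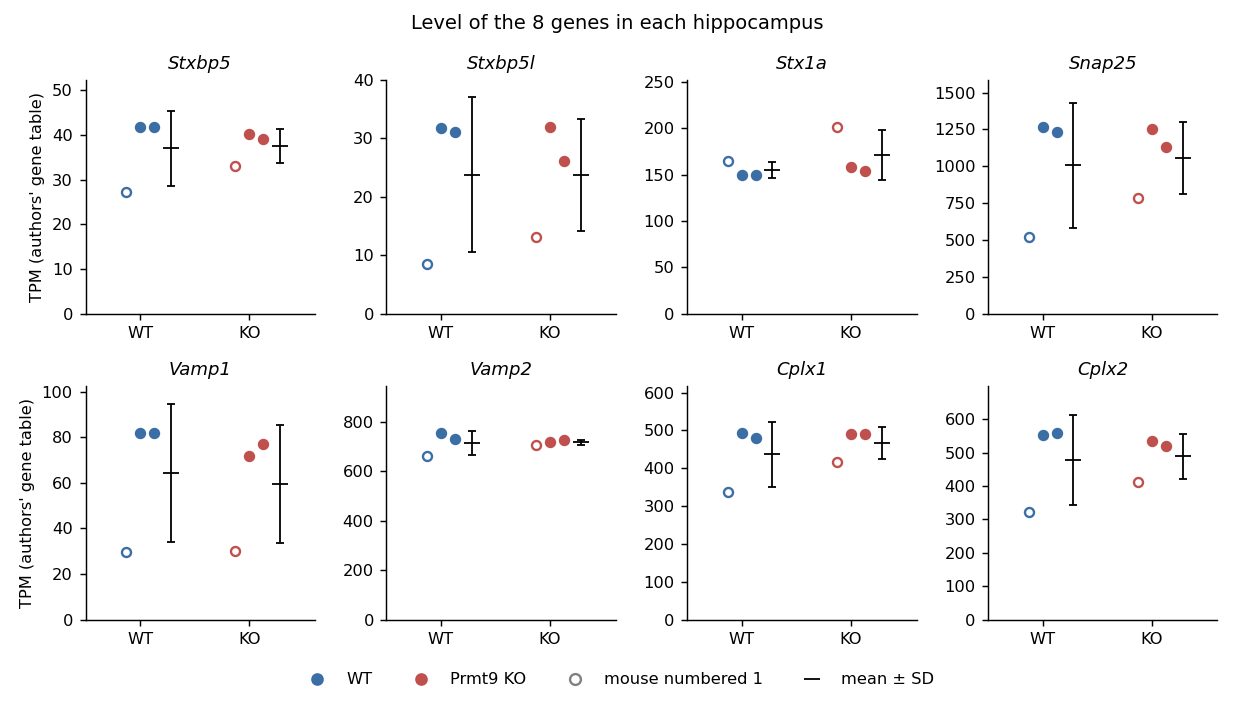
TPM of the 8 genes (vertical axes from 0) in each of the 3 WT and 3 Prmt9 KO mice, with open circles for the mice numbered 1 and black bars for the mean ± SD. The open circles lie below the filled ones for every gene except Stx1a, where they lie above, in both genotypes.

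Stxbp5l, which codes for tomosyn-2, was at 8.49, 31.7 and 31.1 TPM in WT mice 1 to 3 and at 13.2, 32.0 and 26.1 TPM in KO mice 1 to 3. The groups overlapped fully, with 23.8 ± 13.2 TPM in WT and 23.8 ± 9.63 TPM in KO (SD, n = 3 each). The spread came from the mice numbered 1, whose mean was 0.359 times that of the other 4 mice. Stxbp5, which codes for tomosyn-1, was at 27.3, 41.9 and 41.8 TPM in WT and at 33.1, 40.2 and 39.1 TPM in KO. Its groups overlapped as well, and the mice numbered 1 were lower in both, at 0.742 times the mean of the others. The tomosyn coding sequences, compared between Stxbp5l-206 and Stxbp5-201, were identical at 64.5% of aligned positions.

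The 72-base exon of Stxbp5l was used less in every KO mouse than in every WT mouse, and this was the largest of the splicing differences measured in the 8 genes. Inclusion was measured as PSI (percent spliced in, here as a fraction), the TPM of the transcripts that hold the exon over the TPM of those that hold it or skip it. PSI was 0.802, 0.708 and 0.688 in WT mice 1 to 3 and 0.502, 0.511 and 0.535 in KO mice 1 to 3. The lowest WT value lay above the highest KO value, and the difference of the means was −0.216, or −1.36 (SE 0.26) as a log2 ratio of including to excluding TPM. The unadjusted p was 0.00165 (limma over all events), which was rank 18 of 23839 events, and the adjusted p was 1. Without the mice numbered 1, the PSI difference was −0.175 with an unadjusted p of 0.000993 and an adjusted p of 0.4496 (limma). Of all events, 0 passed the limit of adjusted p of at most 0.01 with a PSI difference of at least 0.05 (0%), 762 had an unadjusted p under 0.05 (3.2%), and 114 had a PSI difference at least as large as this exon's. The study used these limits with another method, rMATS-turbo on aligned reads, and names Stxbp5l among its splicing targets. It presents the gene with targets checked by RT-PCR. By crosslinking and immunoprecipitation with qPCR, it also reports more binding of the splicing factor SF3B2 to a site in a downstream intron of Stxbp5l in KO hippocampus. The 0 here holds for TPM of annotated transcripts tested with limma. The 72-base exon was the 1 event of the 8 genes with an unadjusted p under 0.05.

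The second cassette of Stxbp5l, of 171 bases, moved less. Its PSI was 0.764, 0.746 and 0.732 in WT and 0.667, 0.721 and 0.699 in KO. The KO values all lay below the WT values, but the gap between the nearest mice was narrow and the difference of −0.0516 had an unadjusted p of 0.107 (limma, adjusted p = 1). The difference was −0.0974 in the pair numbered 1 and −0.0244 and −0.0331 in the other pairs, and without the mice numbered 1 it was −0.0287 (limma, unadjusted p = 0.197). Taken over every Stxbp5l transcript, the share of including transcripts overlapped between the groups.

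Because the annotation holds a full-length transcript for each of the 4 combinations of the 2 cassettes, the exons could also be read together. Stxbp5l-206, with both exons, made up 75.4%, 56.8% and 56.3% of the 4 transcripts in WT mice 1 to 3 and 44.8%, 44.1% and 46.7% in KO mice 1 to 3. Stxbp5l-204, with the 72-base exon only, made up 5.73%, 10.1% and 9.25% in WT and 3.002%, 3.39% and 3.89% in KO. Of the 4, both that hold the 72-base exon thus had a smaller share in every KO mouse than in any WT mouse. A further transcript with this exon, Stxbp5l-209, has 680 bases and no coding sequence, and it counts in the exon's PSI. Of the gene's TPM it made up 3.56%, 12.3% and 10.5% in WT and 5.18%, 7.55% and 6.54% in KO, with overlapping groups.
Stxbp5l-205, with the 171-base exon only, made up 0.432%, 17.6% and 16.7% in WT and 21.6%, 27.7% and 23.0% in KO. Stxbp5l-203, with neither exon, made up 18.4%, 15.5% and 17.7% in WT and 30.6%, 24.7% and 26.4% in KO. Of the 4, both that skip the 72-base exon had a larger share in every KO mouse than in any WT mouse. The exact two-sided permutation test gave p = 0.1 for each of the 4 shares, also after Benjamini-Hochberg adjustment over the 4, and 3 mice against 3 cannot give a smaller p. The differences were −17.7, −4.93, 12.5 and 10.1 percentage points for Stxbp5l-206, Stxbp5l-204, Stxbp5l-205 and Stxbp5l-203, and −11.2, −6.03, 8.21 and 8.98 without the mice numbered 1. The first and the third leaned on WT mouse 1, and were −11.4 and 6.94 percentage points without it alone. The 4 shares sum to 100% in a mouse and so are not independent of each other.

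**Figure D2:**
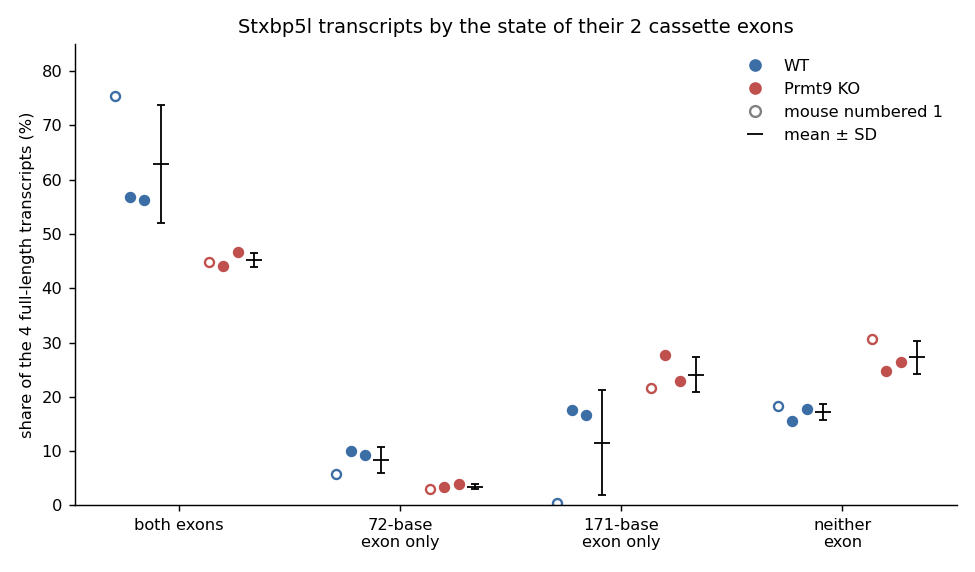
Share of each of the 4 full-length Stxbp5l transcripts (vertical axis, percent of their summed TPM), grouped by the cassette exons they hold, in WT (blue) and Prmt9 KO (red) mice, with open circles for the mice numbered 1 and black bars for the mean ± SD. The 2 groups on the left that hold the 72-base exon are lower in KO, and the 2 that skip it are higher; WT mouse 1 lies at 0.432% for the 171-base exon only.

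The use of the 72-base exon differed with the state of the other cassette. Among transcripts with the 171-base exon, 99.4%, 76.3% and 77.1% held the 72-base exon in WT mice 1 to 3 and 67.5%, 61.4% and 67.0% in KO mice 1 to 3. Among transcripts without it, 23.8%, 39.5% and 34.3% held the 72-base exon in WT and 8.93%, 12.04% and 12.8% in KO. The 72-base exon was thus held more often where the 171-base exon was in than where it was out, in 6 of 6 mice, and the KO values were below the WT values in both states, with differences of −19.0 and −21.2 percentage points. The first of these leaned on the 99.4% of WT mouse 1, and was −11.4 percentage points without that mouse. Without both mice numbered 1 the differences were −12.5 and −24.4 percentage points. These features bound this reading. The files hold TPM of annotated transcripts, so a pair of distant exons is joined by kallisto's model and not by a single read. The annotated 3′ ends also differ, with 717, 391, 3 and 3 bases after the coding sequence in Stxbp5l-206, Stxbp5l-205, Stxbp5l-204 and Stxbp5l-203.

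In TPM, Stxbp5l-206 was at 5.92, 15.4 and 15.3 in WT and at 5.46, 12.8 and 11.1 in KO, and Stxbp5l-203 was at 1.44, 4.20 and 4.83 in WT and at 3.73, 7.18 and 6.31 in KO. Stxbp5l-204 had a log2 fold change of −1.32 between the genotypes (SE 0.61, edgeR, unadjusted p = 0.0753). Of the 38 transcripts of the 8 genes that were tested, 0 were called, as were 0 of all 75682 transcripts (0%). At an unadjusted p under 0.05 there were 1215 of all transcripts and 0 of the 38, and DESeq2 called 110 of all transcripts. With a term for the mice numbered 1 in the edgeR fit, 6 of the 38 had an unadjusted p under 0.05 against 6.2% of all transcripts. Of these 6, 3 were Stxbp5l transcripts: Stxbp5l-206 and Stxbp5l-204 were lower in KO and Stxbp5l-203 was higher, with log2 fold changes of −0.35, −1.15 and 0.77 and an adjusted p of 0.778 for each (edgeR). Stxbp5l-205 was at 1.80 in the same fit with a wide error (SE 1.17, edgeR, unadjusted p = 0.185). The test of transcript usage, which asks whether the transcripts of a gene changed unequally, called 22 of 13561 genes (0.162%) and 0 of the 6 genes of the set with enough transcripts (edgeR, Simes). For Stxbp5l the usage test gave an adjusted p of 1, and 0.380 without WT mouse 1 (edgeR).

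In Stxbp5 no event had separate PSI groups over the 6 mice, and the difference from Stxbp5l was not tested. Its 51-base exon had a PSI of 0.967, 0.870 and 0.869 in WT mice 1 to 3 and of 0.902, 0.892 and 0.892 in KO mice 1 to 3. The KO values lay inside the WT range, and WT mouse 1 was the highest (difference −0.00691, limma, unadjusted p = 0.632). The 84-base exon, the nearest in sequence to the Stxbp5l exon, was annotated in 1 partial transcript and had a PSI of 0.0321, 0.01003 and 0.0111 in WT and of 0.00395, 0.00919 and 0.0103 in KO. These values were below the limits for testing, which asked for a mean PSI of 0.05 to 0.95 in at least 1 genotype, and rested on 7.19 to 43.6 estimated counts per mouse. That transcript, Stxbp5-206, made up 2.04%, 0.801% and 0.881% of the gene's TPM in WT and 0.266%, 0.733% and 0.782% in KO. These shares were separate by a narrow gap, on the same few counts (log2 fold change −1.02, SE 0.64, edgeR, unadjusted p = 0.163). Of these aligned exons, the one in Stxbp5l was thus included in most transcripts and the one in Stxbp5 in few, in the same WT mice.

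Other events of Stxbp5 lay near the same exon or at the end of the gene. The alternative 3′ site 5 bases into the 51-base exon and the remaining exon of 46 bases had PSI values of 0.598 to 0.841 and of 0.559 to 0.949 over the 6 mice. In both, the mice numbered 1 stood apart, lowest for the former and highest for the latter, and the genotypes overlapped over the 6 mice. An intron of 915 bases (chr10:9769535-9770449) had a PSI of 0.666, 0.761 and 0.706 in WT and of 0.714, 0.878 and 0.804 in KO. This was 0.0882 higher in KO with overlapping groups (limma, unadjusted p = 0.127), and it rested on 2 minor transcripts with a sum of as little as 1.71 TPM in a mouse. KO was higher in each pair of the same number, by 0.0484, 0.118 and 0.0982, and the unadjusted p was 0.0387 with the number as a block (limma, adjusted p = 0.762). Without the mice numbered 1 the groups were separate, with a difference of 0.108 (limma, unadjusted p = 0.0466, adjusted p = 0.499). This PSI sets Stxbp5-204, which keeps the intron, against Stxbp5-207 alone. Their mean shares of the gene's TPM were 4.27% and 1.85% in WT and 4.18% and 1.08% in KO. Stxbp5-201 and Stxbp5-209, among others, splice out only 739 of these bases. Against these, Stxbp5-204 had a mean PSI of 0.0443 in WT and 0.0431 in KO, below the limits for testing. The proportions of the main transcripts overlapped between the genotypes, with Stxbp5-209 at 38.8% ± 6.72 and Stxbp5-201 at 28.8% ± 0.676 of the gene's TPM in WT, against 39.1% ± 5.94 and 28.8% ± 1.16 in KO (SD, n = 3 each), and Stxbp5-211, which has no coding sequence, at 13.5% ± 6.68 and 14.6% ± 6.61.

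Stx1a codes for syntaxin-1A, the plasma membrane SNARE that tomosyn binds. It was at 164.6, 149.5 and 150.0 TPM in WT mice 1 to 3 and at 202, 158 and 154 TPM in KO mice 1 to 3. The highest KO value came from mouse 1, the other KO mice lay inside the WT range, and the mice numbered 1 were 1.199 times the mean of the others. Of its transcripts, Stx1a-201 made up 79.1% ± 5.53 of the gene in WT and 78.4% ± 3.58 in KO, Stx1a-203 8.49% ± 0.837 and 8.59% ± 1.49, and Stx1a-206 5.29% ± 2.52 and 5.85% ± 1.57 (SD, n = 3 each). Its 3 events, an exon of 75 bases, a 3′ site of 83 bases and a 5′ site of 124 bases, had differences between the genotypes of −0.00639, 0.00150 and −0.00768, with unadjusted p values of 0.659, 0.845 and 0.817 (limma).

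Snap25, the gene of the other plasma membrane SNARE, had the highest mean level of the 8. It was at 517, 1269 and 1233 TPM in WT mice 1 to 3 and at 781, 1249.6 and 1132 TPM in KO mice 1 to 3. The groups overlapped, and the mice numbered 1 were at 0.532 times the mean of the others. The share of exon 5a, against 5a and 5b together, was 0.288, 0.127 and 0.137 in WT and 0.273, 0.157 and 0.143 in KO. Exon 5b was therefore the main form in all 6 mice, the genotypes overlapped (difference 0.00696, limma, unadjusted p = 0.839), and the share of 5a was higher in both mice numbered 1 than in the other 4. In TPM, the 5a transcript Snap25-202 was at 149, 161 and 169 in WT and at 213, 196 and 161 in KO, and the 5b transcript Snap25-201 at 368, 1107 and 1064 and at 568, 1052 and 969. The 5b transcript varied more between mice of one genotype than the 5a transcript did. The exons cannot be told apart here from the annotated 3′ ends, since Snap25-202 has 211 bases after its coding sequence and Snap25-201 has 1288.

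Vamp1 and Vamp2 code for the vesicle SNAREs synaptobrevin-1 and synaptobrevin-2. Vamp1 was at 29.6, 81.9 and 82.0 TPM in WT mice 1 to 3 and at 29.98, 71.96 and 76.9 TPM in KO mice 1 to 3. Each KO mouse numbered 2 or 3 lay below both WT mice so numbered, and the pair numbered 1 were close to each other and at 0.381 times the mean of the others. With a term for the mice numbered 1, the log2 fold change was −0.16 (SE 0.05) with an unadjusted p of 0.0125, where 9.71% of all genes had an unadjusted p under 0.05, and the adjusted p was 0.447 (edgeR). Vamp2, the more abundant, was at 663, 757 and 731 TPM in WT and at 709, 717 and 727 TPM in KO. It was the steadiest of the 8 genes across the mice, and the KO values lay inside the WT range. The coding sequences of Vamp1-201 and Vamp2-201 were identical at 75.0% of aligned positions.

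The last intron of Vamp1 was kept more often in every KO mouse than in every WT mouse. Its PSI, the share of Vamp1-203 against Vamp1-201 and Vamp1-203, was 0.285, 0.334 and 0.345 in WT mice 1 to 3 and 0.432, 0.362 and 0.389 in KO mice 1 to 3. The groups were separate by a narrow gap, the mice numbered 1 were the lowest and the highest of all, and the difference was 0.0728 (limma, unadjusted p = 0.0568, adjusted p = 1). Without the mice numbered 1, the difference was 0.0359 (limma, unadjusted p = 0.115). In TPM, Vamp1-201 was at 19.2, 50.8 and 50.2 in WT and at 15.0, 42.4 and 43.3 in KO, and Vamp1-203 at 7.66, 25.5 and 26.4 and at 11.4, 24.0 and 27.5. Both forms overlapped between the genotypes in TPM. Within pairs of the same number the spliced form was lower in KO in 3 of 3, and the retained form was higher in KO in 2 of 3. Vamp1-205, which has no coding sequence, made up 5.02% ± 0.809 of the gene in WT and 6.07% ± 1.46 in KO (SD, n = 3 each). Vamp2 had 1 transcript above 5% of its TPM, Vamp2-201 at 95.4% ± 1.55 in WT and 95.0% ± 1.55 in KO (SD, n = 3 each).

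Cplx1 and Cplx2 code for complexin-1 and complexin-2, which were identical at 80.0% of aligned coding positions. Cplx1 was at 338, 494 and 479.7 TPM in WT mice 1 to 3 and at 418, 489.9 and 491 TPM in KO mice 1 to 3. Cplx2 was at 323, 554 and 560 TPM in WT and at 412, 533 and 520 TPM in KO. For both, the genotypes overlapped and the mice numbered 1 were the lowest of their genotype, at 0.773 and 0.678 times the mean of the others. Each had 1 main transcript, Cplx1-201 with 99.9% or more of the TPM in every mouse and Cplx2-201 as the sole annotated transcript, so neither gene had an event to test.

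**Figure D3:**
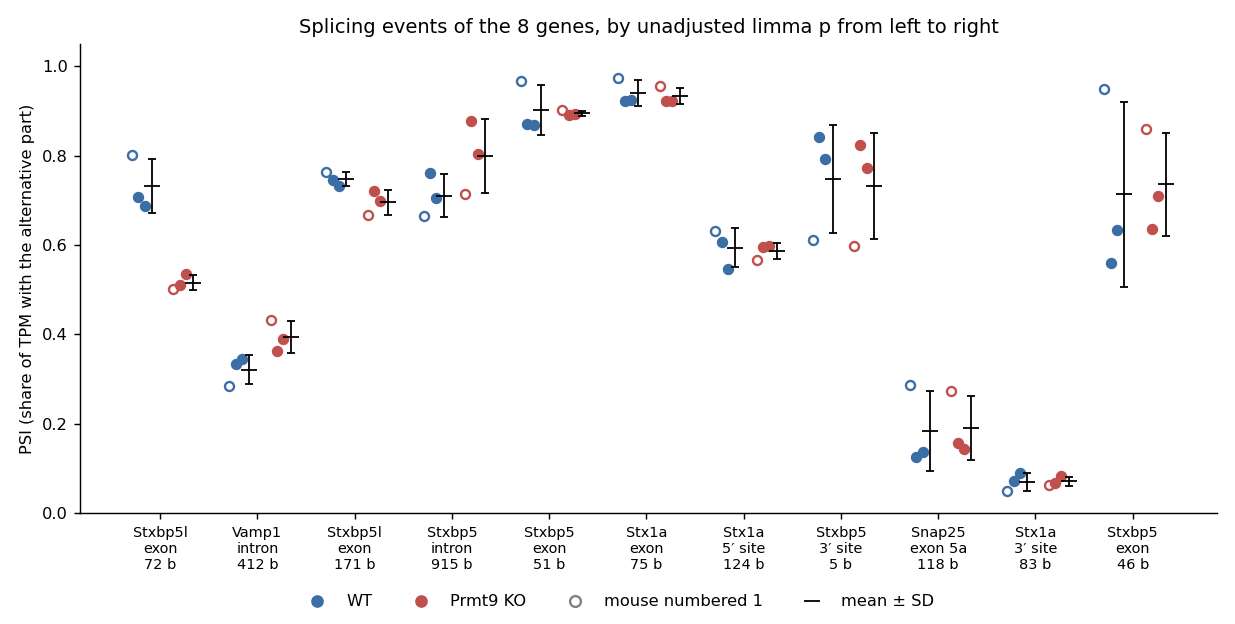
PSI (vertical axis, fraction from 0 to 1) of the 11 splicing events of the 8 genes that passed the limits, in WT (blue) and Prmt9 KO (red) mice, ordered by unadjusted limma p, with open circles for the mice numbered 1 and black bars for the mean ± SD; b stands for bases. The genotypes are separate in the 72-base and 171-base exons of Stxbp5l and in the Vamp1 intron, and they overlap in the other 8.

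Over the set, 20 events were annotated and 11 passed the limits, in 5 of the 8 genes. The PSI groups were separate in 3 of the 11, 2 lower in KO, both in Stxbp5l, and 1 higher, in Vamp1, while 10.6% of all 23839 events had separate groups. The 2 Stxbp5l events were computed from mostly the same transcripts and so are not independent of each other. The median absolute PSI difference was 0.0172 over the 11 events and 0.0206 over all events. With a term for the mice numbered 1, the 72-base exon of Stxbp5l again was the 1 event of the 11 with an unadjusted p under 0.05 (0.00155, adjusted p = 0.580, limma), against 8.49% of all events. With the number as a block, and also without both mice numbered 1, 2 of the 11 had an unadjusted p under 0.05, this exon and the 915-base intron of Stxbp5, against 5.15% and 9.94% of all events.

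In order of mean TPM in WT, which is a level per length of transcript, the genes were Snap25 (1007), Vamp2 (717), Cplx2 (479), Cplx1 (437), Stx1a (155), Vamp1 (64.5), Stxbp5 (37.0) and Stxbp5l (23.8). The neighbours Snap25 and Vamp2, Cplx2 and Cplx1, Vamp1 and Stxbp5, and Stxbp5 and Stxbp5l had overlapping ranges over the WT mice. Ranges over mice leave out that both genes were measured in the same mouse, so they do not settle the order of these neighbours. The ranges of Vamp2 and Cplx2, of Cplx1 and Stx1a, and of Stx1a and Vamp1 did not overlap. Within each mouse the order was the same for some of the overlapping pairs: Stxbp5 was above Stxbp5l in 6 of 6 mice, Vamp1 above Stxbp5 in 5 of 6, Snap25 above Vamp2 in 5 of 6 and Cplx2 above Cplx1 in 4 of 6.

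Ratios between relatives were taken within each mouse, where a shift common to both genes cancels. The log2 ratio of Stxbp5l to Stxbp5 was −1.69, −0.40 and −0.42 in WT mice 1 to 3 and −1.33, −0.33 and −0.58 in KO mice 1 to 3. That of Vamp1 to Vamp2 was −4.49, −3.21 and −3.16 in WT and −4.56, −3.32 and −3.24 in KO. In both ratios the mice numbered 1 were the lowest by a wide margin in either genotype, and the genotypes overlapped.
Cplx1 to Cplx2 lay between −0.22 and 0.06 in all 6 mice. Exon 5b to 5a of Snap25 had log2 ratios of 1.31, 2.78 and 2.66 in WT and of 1.41, 2.43 and 2.59 in KO. No difference between the genotypes passed the test for any of the 4 ratios, with exact two-sided permutation p-values of 0.8, 0.5, 0.7 and 0.7 in the order given and an adjusted p of 0.8 for each over the 4, where the smallest p the design allows is 0.1. The ratio of Vamp1 to Vamp2 was lower in KO in 3 of 3 pairs of the same number, by similar amounts, with differences of −0.08, −0.11 and −0.08. The exact sign-flip permutation test over these pairs gave p = 0.25, the smallest that 3 pairs allow.

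**Figure D4:**
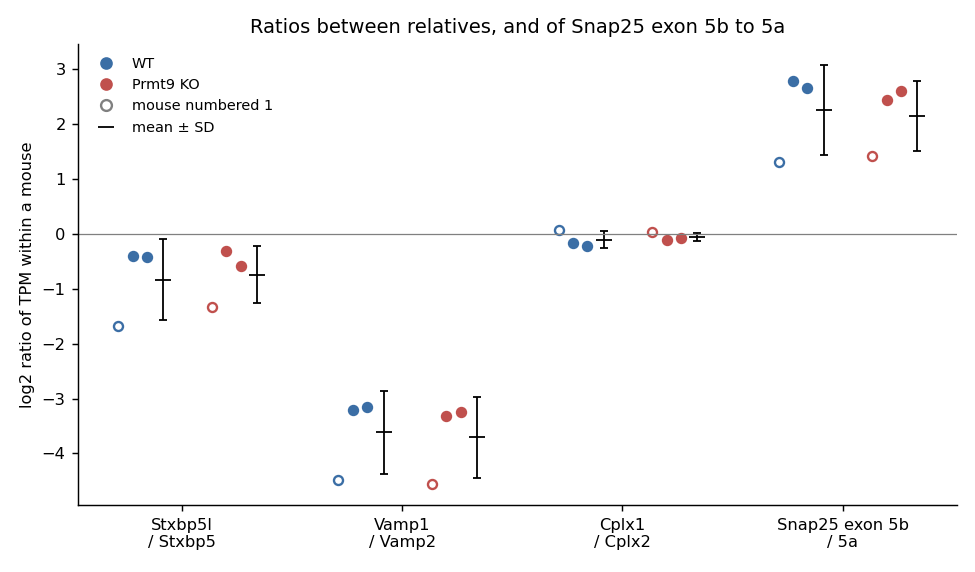
Log2 ratio of TPM within a mouse (vertical axis) for 3 pairs of related genes and for Snap25 exon 5b against 5a, in WT (blue) and Prmt9 KO (red) mice, with open circles for the mice numbered 1 and black bars for the mean ± SD. The genotypes overlap in all 4 ratios, and the open circles lie apart from the filled ones in both genotypes.

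The wider vesicle fusion machinery was read from a list of 44 further genes in 10 roles, of which 43 could be tested. None was called, with 17 log2 fold changes above 0 and 26 below, a range of −0.27 to 0.33 and a median of −0.03. Over all 20335 genes tested, 9546 were above 0 and 10789 below, with a median of −0.01. The TPM groups were separate in 3 of the 43, against 6.67% of all genes: Unc13b and Snapin were higher and Napa was lower in KO. An unadjusted p under 0.05 was found for 1 gene of the 43, Unc13c, against 1.23% of all genes.
The priming genes hold the 3 Munc13 genes, whose proteins open syntaxin for assembly, and the CAPS genes. Unc13c was at 4.93, 7.48 and 8.28 TPM in WT and at 7.34, 9.61 and 10.6 TPM in KO, higher in KO in each pair of the same number but with overlapping groups (log2 fold change 0.33, SE 0.12, edgeR, unadjusted p = 0.0325, adjusted p = 0.9999). The priming gene with the highest WT mean, Unc13a, was at 94.4, 188 and 185 TPM in WT and at 112, 159 and 149.9 TPM in KO.
Stxbp2, which codes for a Munc18 protein that binds syntaxins, had the second smallest unadjusted p, 0.0538, with a log2 fold change of 0.26 (SE 0.11, edgeR). The third was Prrt2, whose protein binds SNAP-25, with a log2 fold change of −0.19 (SE 0.10, edgeR, unadjusted p = 0.122). Both had overlapping groups.

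In the other roles, the gene with the highest WT mean TPM is given with its log2 fold change. Among 7 syntaxins beside Stx1a it was Stx7, −0.08 (SE 0.26). Snap47 led the 3 SNAP-25 relatives at −0.04 (SE 0.24), and Vamp4 the 4 other VAMPs at −0.04 (SE 0.09). Vamp4 and its list stood far below Vamp2 in level, at 54.0 TPM or less in every mouse.
Cplx3 was the 1 of 2 other complexins with enough counts, at 0.27 (SE 0.23), and Llgl1, a relative of the tomosyns, led its 2 genes at −0.08 (SE 0.17). Stxbp2 led the 5 Munc18 proteins and syntaxin binders, and Prrt2 the 4 genes of no other role, both with the values above. Nsf, the ATPase that takes used SNARE bundles apart, led the 4 disassembly genes at −0.02 (SE 0.17).
Syt1, the calcium sensor of fast release, led 8 sensors at 0.04 (SE 0.14). With the term for the mice numbered 1, 8 of the 43 genes had an unadjusted p under 0.05 (background 9.71% of all genes), and the smallest adjusted p was 0.319 (edgeR).

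**Figure D5:**
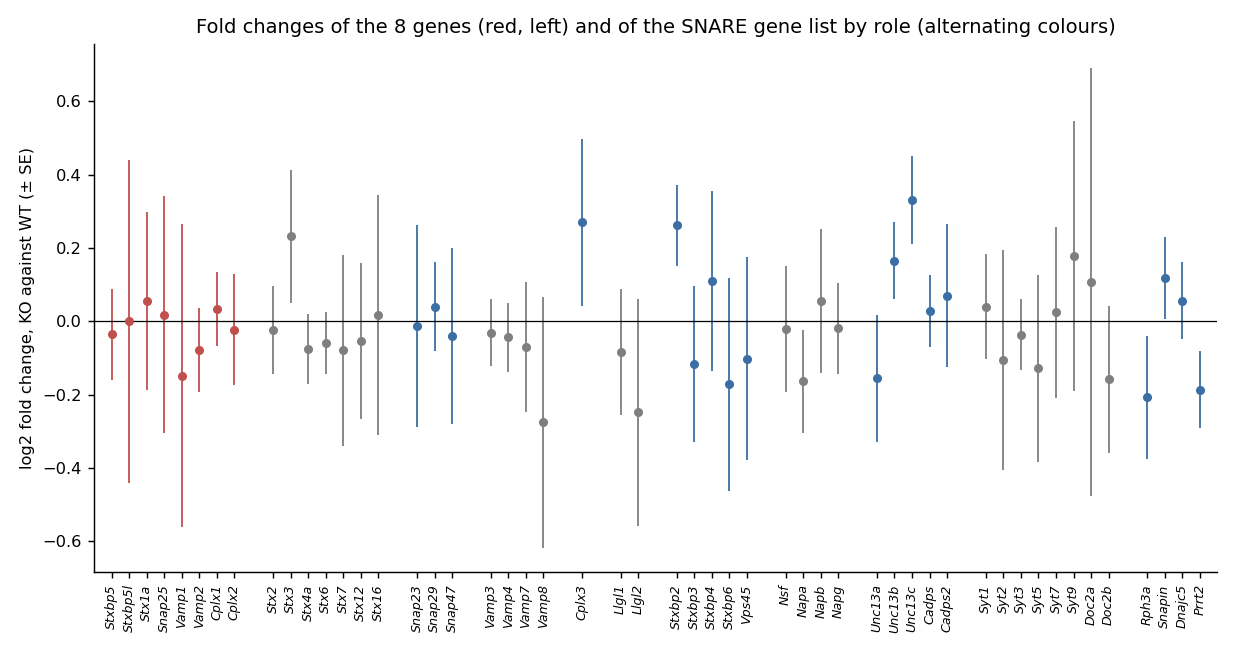
Log2 fold change of Prmt9 KO against WT (vertical axis, points, with bars for ± 1 SE from edgeR) for the 8 genes (red) and the 43 further genes tested, grouped by role in alternating colours. The points lie between −0.27 and 0.33, and none was called.

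The genes whose pattern over the 6 mice was most like that of Stxbp5l were Med1, Atp13a3 and Lnpep, each with a Pearson correlation of 0.999 of log2 CPM among 9979 genes with a mean of at least 10 TPM. For Stxbp5 they were Unc5c, Lmbrd2 and Atp8a1, with 0.998, 0.997 and 0.997. Such values were common, since 183 genes reached a correlation above 0.99 with Stxbp5l and 41 with Stxbp5. All of these patterns share the low values of the mice numbered 1: Lnpep, for example, was at 5.96 and 8.07 TPM in these mice and at 14.8 to 17.3 TPM in the other 4.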

How the data were processed

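The authors deposited, for each mouse, kallisto's estimated counts and TPM per annotated transcript, and 1 gene table in TPM. The submitters' processing notes name kallisto 0.46.0, STAR 2.7.1a and GRCm38. Of 118783 transcripts, 116710 were matched to GENCODE M21. Estimated counts were summed per gene, rounded and tested with edgeR 4.0.16 (TMM, filterByExpr, quasi-likelihood F test), and transcript usage with its diffSpliceDGE (Simes, adjusted p below 0.01). DESeq2 1.42.0, the study's tool, was an alternative. Splicing events were built from the annotation and tested as log2((including + 0.1)/(excluding + 0.1)) of TPM with limma 3.58.1, where both sides summed to at least 1 TPM in every mouse and the mean PSI was 0.05 to 0.95 in a genotype. P-values were Benjamini-Hochberg adjusted over all features. Junction reads were not used here.

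The 8 genes and the lists were chosen with earlier results of these data known. Named were the 8 genes and Prmt9, their transcripts with a mean share of at least 5% in a genotype, their events past the limits, and of the list by role each gene called, the highest mean WT TPM per role and the 3 smallest unadjusted p-values. A few further genes (Snapin, Unc13b, Napa), transcripts and events were named after their values were seen. Some genes of the list and 1 ratio are not reported here, and the counts leave them out.

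Deviations from the genotype means correlated between mice of the same number (Pearson 0.55, 0.42 and 0.38 over genes), and the numbers were read as pairs. Nothing in the labels ties them to a litter or day, and mice numbered 2 and 3 correlated as well across numbers (0.41 and 0.40). These values set apart only the mice numbered 1. Comparisons within pairs, the block and the sign-flip tests thus rest on the numbering alone for mice 2 and 3. Replicate mice differed by more than counting noise, with a chi-square per gene of at least 25.4. Counting error is small at this depth, so the spread between mice limits precision.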

Additional observations from a re-analysis of the deposited data

How the results depend on the processing

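No member gene, transcript, usage test or splicing event was called under any alternative run. Counts over all features moved in these cases: genes called were 0 by edgeR, 2 by DESeq2, 1 with a term for the mice numbered 1 and 1 without both mice numbered 1, and Prmt9 was called in each of these 3; transcripts called were 0 by edgeR and 110 by DESeq2. Genes called for usage ran from 1 to 139 around the 22, highest without WT mouse 1. With the replicate number as a block (replicate block), 0 genes, 0 transcripts and 0 events were called and no call of a member changed; the block left the differences of the 4 ratios as they were, with exact sign-flip p-values of 0.75 for Stxbp5l/Stxbp5, 0.25 for Vamp1/Vamp2, 0.75 for Cplx1/Cplx2 and 0.75 for exon 5b/5a, where 3 pairs cannot go below 0.25.

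Several log2 fold changes, none of them called, changed sign. On log2(TPM + 0.1) and log2(TPM + 1) with limma, they were 0.040 and 0.039 for Stxbp5, 0.13 and 0.12 for Stxbp5l, 0.0039 and 0.0038 for Vamp2, and 0.064 and 0.064 for Cplx2. Stxbp5l was at 0.0083 with no low-count filter, 0.055 with the block and 0.059 with the term for the mice numbered 1. Snap25 was at −0.084 without both mice numbered 1. With each mouse left out in turn, the log2 fold change ran from −0.13 to 0.018 for Stxbp5, −0.33 to 0.26 for Stxbp5l, −0.16 to 0.29 for Stx1a, −0.25 to 0.20 for Snap25, −0.42 to 0.15 for Vamp1, −0.13 to 0.0071 for Vamp2, −0.012 to 0.070 for Cplx1 and −0.14 to 0.048 for Cplx2.

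The ratio differences ran from −0.33 to 0.38 for Stxbp5l/Stxbp5, −0.52 to 0.34 for Vamp1/Vamp2, −0.012 to 0.13 for Cplx1/Cplx2 and −0.58 to 0.26 for exon 5b/5a, with the extremes without WT mouse 1 or KO mouse 1 in the first 2 and the last. Without both mice numbered 1, an alternative chosen after seeing the data, Stxbp5l/Stxbp5 was at −0.041. The shares and conditional inclusion of the Stxbp5l transcripts, where these alternatives were also chosen after seeing the data, kept their sign with each mouse left out: −20.9 to −11.4 percentage points for both exons, 6.94 to 15.5 for the 171-base exon only, and −23.0 to −11.4 for the 72-base exon where the other was in.

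The PSI difference of the 72-base exon of Stxbp5l ran from −0.239 to −0.182 with each mouse left out, that of the 171-base exon from −0.0644 to −0.0371, that of the Vamp1 intron from 0.0541 to 0.0890 and that of the 915-base intron of Stxbp5 from 0.0484 to 0.131. The other events changed sign: −0.00898 to 0.0110 for the 83-base, −0.0321 to 0.0108 for the 124-base and −0.0172 to 0.0104 for the 75-base event of Stx1a, −0.0857 to 0.0497 for the 5-base, −0.0558 to 0.139 for the 46-base and −0.0233 to 0.0255 for the 51-base event of Stxbp5, and −0.0340 to 0.0590 for exon 5a of Snap25. Without both mice numbered 1, the 83-base, 124-base and 51-base events were at −0.00475, 0.0212 and 0.0223, the 75-base event at −0.000346, the 46-base event at 0.0767 and exon 5a of Snap25 at 0.0180. With all transcripts in the denominator, the 124-base event was at 0.000945 and the 915-base intron at −0.000913. The cause of these sign changes was not tested.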
